A study of Rattus norvegicus with 9 samples.

Results

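The genes described here are 9 p53 targets and regulators of apoptosis, followed in the vestibular sensory epithelium of rats during chronic exposure to an ototoxic nitrile. They were taken from the table of gene counts by their symbols, as Cdkn1a, Mdm2, Bax, Bak1, Bbc3, Bcl2, Bcl2l1, Bcl2l11 and Casp8. Of these 9 genes, 8 matched exactly 1 of the 32883 genes in the table, and Bbc3 was not analysed here. All 8 were among the 15517 genes with enough counts to be tested. Long-Evans rats drank water with 20 mM 3,3'-iminodipropionitrile (IDPN), a compound toxic to hair cells (HCs), for 3 weeks (IDPN-3wk) or 7 weeks (IDPN-7wk). The paper names adult males for another of its rat experiments with this exposure and does not restate sex or age for this one. Control rats drank plain water, and their single group held animals euthanized at each of the time points. Each library was made from the 2 utricles and 6 cristae of 1 rat, so it holds RNA of HCs, supporting cells and all other cells left in the dissected tissue. Each of the 3 groups had 3 rats, and both exposed groups were compared with this one set of controls.

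The p53 protein is a transcription factor that is kept at a low level by the ubiquitin ligase Mdm2, and it accumulates after DNA damage and other kinds of stress. Its targets include Cdkn1a, which halts the cell cycle, Mdm2 itself, and genes that drive the mitochondrial route of apoptosis. In that route BH3-only proteins such as Bim (encoded by Bcl2l11) release the pore-forming effectors Bax and Bak from the guardian proteins Bcl2 and Bcl-xL (encoded by Bcl2l1), while death receptors act through the initiator caspase Casp8. This machinery is known from acute ototoxic death of HCs, whereas chronic exposure to IDPN is known as a model in which HCs are extruded from the epithelium. The paper's gene set enrichment analysis, over whole sets and not single genes, found a modest rise of the apoptosis hallmark set in IDPN-3wk and IDPN-7wk rats. It also found the p53 pathway set enriched in IDPN-7wk rats, while its statements differ for IDPN-3wk rats.

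None of the 8 genes passed the test in any comparison. The test was the robust quasi-likelihood test of edgeR on the counts, and a gene passed at an adjusted p below 0.05 (Benjamini-Hochberg, over all 15517 genes) together with a fold change above 1.5. The share of all tested genes that passed was 1.65% in IDPN-3wk against control rats, 5.13% in IDPN-7wk against control rats and 0.483% in IDPN-7wk against IDPN-3wk rats. At an unadjusted p below 0.05, edgeR gave 0, 2 and 0 of the 8 genes, against 15.8%, 19.3% and 13.8% of all genes. DESeq2 at the same thresholds called 0, 1 and 0 of them, against 5.18%, 8.73% and 3.84% of all genes. The gene called by DESeq2 was Cdkn1a in IDPN-7wk rats, which was also the member with the largest difference at 7 weeks.

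Cdkn1a encodes the cyclin-dependent kinase inhibitor p21, the best known p53 target (ENSRNOG00000000521). Levels are given as CPM, the reads of a gene relative to all reads of its library, with library sizes corrected by the trimmed mean of M values (TMM). Control rats had 3.51, 2.85 and 0.732 CPM of Cdkn1a, IDPN-3wk rats 4.80, 2.32 and 6.76 CPM, and IDPN-7wk rats 6.86, 9.31 and 9.19 CPM. Each IDPN-7wk rat was thus above every control and every IDPN-3wk rat, while the IDPN-3wk rats overlapped with the controls. The group means were 2.36 ± 1.45, 4.63 ± 2.23 and 8.46 ± 1.38 CPM (SD, n = 3). In IDPN-7wk against control rats the log2 fold change was 1.84 ± 0.574 (SE), a fold of 3.58 with a 95% interval of 1.48 to 8.66, and its edgeR adjusted p was 0.10. DESeq2 gave the same log2 fold change of 1.84 with an adjusted p of 0.0158, so the call depends on the tool. In IDPN-3wk against control rats the log2 fold change was 0.97 ± 0.564 (edgeR adjusted p = 0.442), with values from 0.54 without control replicate 3 to 1.66 with the library set described further on as a covariate, and in IDPN-7wk against IDPN-3wk rats it was 0.87 ± 0.558 (edgeR adjusted p = 0.538). The counts behind these levels ran from 26 to 453 reads per library.

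Mdm2, the ligase that marks p53 for degradation and is a p53 target in its own feedback loop (ENSRNOG00000006304), had 73.7, 82.8 and 63.9 CPM in control rats, 94.2, 75.5 and 91.2 CPM in IDPN-3wk rats, and 100, 87.2 and 79.6 CPM in IDPN-7wk rats. The groups overlapped at both times. Its log2 fold changes were 0.24 ± 0.139 in IDPN-3wk rats (edgeR adjusted p = 0.433) and 0.28 ± 0.139 in IDPN-7wk rats (edgeR adjusted p = 0.317), each against control. The 95% interval at 7 weeks, -0.03 to 0.59, reached just past the log2 value of a 1.5-fold change.

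Promoter sequences of RefSeq (GRCr8 assembly), which differs from the Rnor6.0 genome of the counts, were at hand for 6 of the 9 members. The 250 bases before the annotated start are shown for Cdkn1a, Mdm2 and Bcl2l11, the members whose levels ran closest together over the 9 libraries. Capitals mark, in Cdkn1a, a match to the 10-base p53 half-site directly beside a second half-site with 1 mismatch, and, in the other two, the core motif GTAAACA that forkhead factors bind, sought on both strands. The Cdkn1a window lies on the plus strand at chr20:7150682-7150931, the Mdm2 window on the minus strand at chr7:55200792-55201041, and the Bcl2l11 window on the plus strand at chr3:135819792-135820041.
Cdkn1a: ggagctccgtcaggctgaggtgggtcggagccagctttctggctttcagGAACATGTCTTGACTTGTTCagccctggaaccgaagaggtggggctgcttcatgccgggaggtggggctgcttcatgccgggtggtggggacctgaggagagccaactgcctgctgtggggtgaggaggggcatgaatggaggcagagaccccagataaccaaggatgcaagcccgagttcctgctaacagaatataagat
Mdm2: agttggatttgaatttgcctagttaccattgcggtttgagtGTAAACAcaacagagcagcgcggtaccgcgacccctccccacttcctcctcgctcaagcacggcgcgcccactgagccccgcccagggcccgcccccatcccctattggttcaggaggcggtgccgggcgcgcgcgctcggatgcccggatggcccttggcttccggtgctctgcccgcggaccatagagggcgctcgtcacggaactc
Bcl2l11: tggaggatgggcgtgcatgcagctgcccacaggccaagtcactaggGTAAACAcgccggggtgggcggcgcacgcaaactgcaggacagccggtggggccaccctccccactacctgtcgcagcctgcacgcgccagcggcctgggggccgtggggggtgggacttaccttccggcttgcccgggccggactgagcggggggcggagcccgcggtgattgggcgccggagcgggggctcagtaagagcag
The pair in the Cdkn1a promoter spans 20 bases and begins 201 bases before the start, and GTAAACA begins 209 bases before the start of Mdm2 and 204 before that of Bcl2l11. Among 33469 promoter windows of 300 bases (the 250 shown and 50 after the start), a half-site occurred in 7.98%, a half-site beside another with at most 1 mismatch in 0.0717%, and GTAAACA in 3.78%. The windows of Bak1, Bcl2 and Bcl2l1 held none of these motifs, which were chosen after the windows had been read. The matches describe the letters only, and no binding was measured in these samples.

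**Figure D1:**
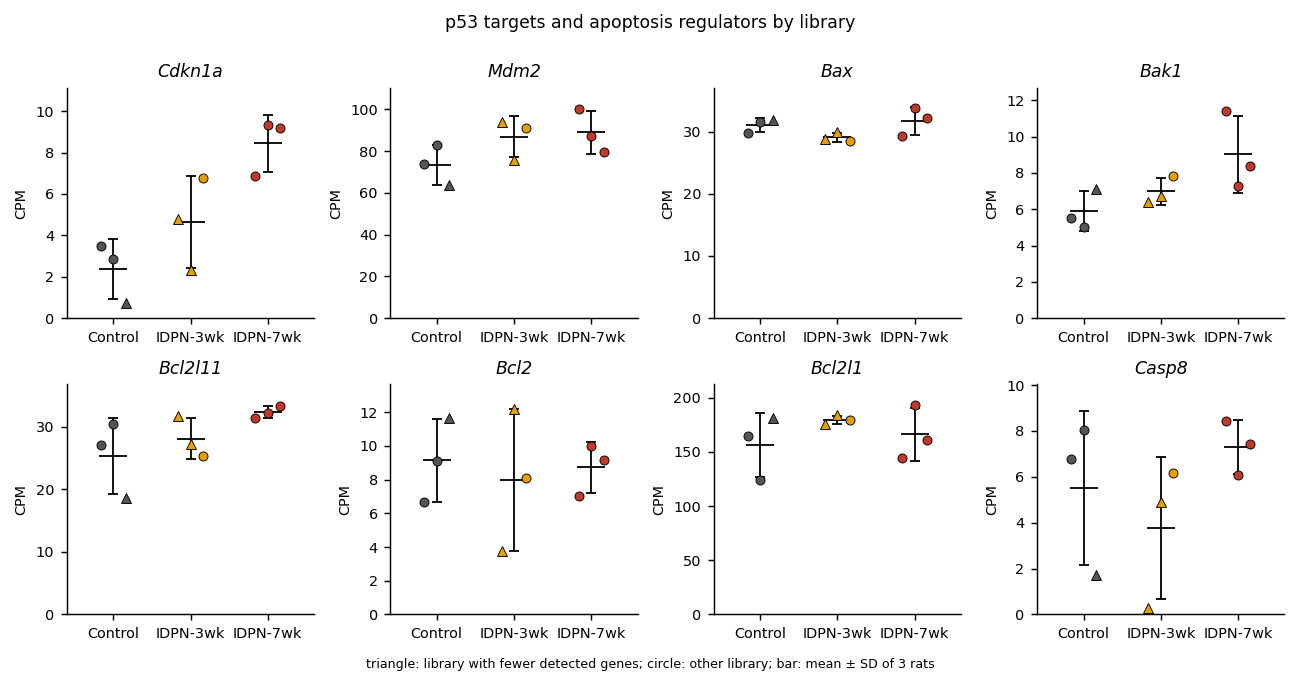
Level (CPM) of each of the 8 genes in every library, by group, with horizontal bars for the mean and error bars for the SD of 3 rats, and triangles for the libraries with fewer detected genes. Cdkn1a in the IDPN-7wk rats (6.86 to 9.31 CPM) lies above every other library, whereas Bax stays between 28.6 and 33.8 CPM throughout.

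The effectors Bax and Bak1, whose proteins form pores in the outer mitochondrial membrane, differed from each other in spread. Bax (ENSRNOG00000020876) had 29.9, 31.6 and 32.0 CPM in control rats, 28.9, 30.0 and 28.6 CPM in IDPN-3wk rats, and 29.3, 33.8 and 32.2 CPM in IDPN-7wk rats. The coefficient of variation of Bax within a group was 2.5 to 7.16%, and all groups overlapped. Its log2 fold change against control was -0.10 in IDPN-3wk rats, with a fold interval of 0.768 to 1.14, and 0.03 in IDPN-7wk rats, with a fold interval of 0.837 to 1.24, so both intervals lay within a 1.5-fold change in either direction. Bak1 (ENSRNOG00000000485) had 5.50, 5.01 and 7.12 CPM in control rats, 6.38, 6.73 and 7.84 CPM in IDPN-3wk rats, and 11.4, 7.28 and 8.41 CPM in IDPN-7wk rats. The IDPN-7wk rats were all above the controls, though the lowest of them was close to the highest control. The log2 fold change of Bak1 at 7 weeks was 0.62 ± 0.277, with an unadjusted p of 0.0491 and an adjusted p of 0.257 in edgeR and an adjusted p of 0.137 in DESeq2.

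Bcl2l11 encodes Bim, a BH3-only protein that binds all guardians and activates the effectors (ENSRNOG00000016551). It had 27.1, 30.4 and 18.5 CPM in control rats, 31.7, 27.2 and 25.3 CPM in IDPN-3wk rats, and 31.3, 32.2 and 33.3 CPM in IDPN-7wk rats. The IDPN-7wk rats lay within a narrow range (coefficient of variation 2.98%) just above the highest control. The log2 fold change was 0.15 ± 0.191 in IDPN-3wk rats (edgeR adjusted p = 0.769) and 0.35 ± 0.191 in IDPN-7wk rats (edgeR adjusted p = 0.366), and the latter was 0.17 without control replicate 3, the lowest of the controls. Cdkn1a, Bak1 and Bcl2l11 were the 3 of 8 members (37.5%) whose IDPN-7wk rats did not overlap with the controls, and all were higher. Over all tested genes the groups did not overlap in 34.3%, and IDPN-7wk rats were the higher ones in 17.2%. In IDPN-3wk against control rats 0 of 8 members did not overlap, against 19.6% of all genes. In IDPN-7wk against IDPN-3wk rats Cdkn1a alone (12.5%) did not overlap, against 21% of all genes, of which those higher at 7 weeks made up 12.1%.

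The guardians Bcl2 and Bcl2l1, which hold the effectors in check, overlapped between all groups. Bcl2 (ENSRNOG00000002791) had 6.66, 9.12 and 11.6 CPM in control rats, 3.73, 12.2 and 8.09 CPM in IDPN-3wk rats, and 7.05, 9.99 and 9.17 CPM in IDPN-7wk rats. The widest range was that of the IDPN-3wk rats, which included both the lowest and the highest of the 9 libraries. Its log2 fold changes against control were -0.19 ± 0.402 at 3 weeks and -0.06 ± 0.400 at 7 weeks, with intervals that reached -1.09 and 0.83, so that a change of 1.5-fold would not have been detectable. Bcl2l1 (ENSRNOG00000007946) had 165, 124 and 181 CPM in control rats, 176, 184 and 180 CPM in IDPN-3wk rats, and 144, 193 and 161 CPM in IDPN-7wk rats. Its log2 fold changes were 0.20 ± 0.148 at 3 weeks (edgeR adjusted p = 0.561) and 0.09 ± 0.148 after 7 weeks (edgeR adjusted p = 0.827), with intervals within a 1.5-fold change.

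The ratio of Bax to Bcl2 is a customary index of the balance between effectors and guardians. As a log2 ratio of counts within a library, it was 2.16, 1.79 and 1.46 in control rats, 2.95, 1.3 and 1.82 in IDPN-3wk rats, and 2.06, 1.76 and 1.81 in IDPN-7wk rats. The ratio carries the lengths of both transcripts, so only its differences between rats can be read, and the groups overlapped. The means were 1.81 ± 0.352, 2.03 ± 0.844 and 1.87 ± 0.159 (SD, n = 3). The differences from control were 0.219 at 3 weeks (exact two-sided permutation p = 0.8) and 0.0685 at 7 weeks (exact permutation p = 0.9), and 7 weeks less 3 weeks gave -0.151 (exact permutation p = 0.8). With 3 rats against 3 there are 20 splits, and the smallest p this design allows is 0.1. All these differences changed sign when the libraries with fewer detected genes, described below, were left out.

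Casp8, the initiator caspase of the death receptor pathway (ENSRNOG00000012331), had 6.80, 8.02 and 1.72 CPM in control rats, 0.273, 4.88 and 6.15 CPM in IDPN-3wk rats, and 8.41, 6.07 and 7.42 CPM in IDPN-7wk rats. The coefficients of variation were 60.7%, 82.1% and 16.1%, of which that of the IDPN-3wk rats was the highest of any member in any group, and the counts ran from 10 to 413 reads. Its log2 fold change was -0.55 ± 0.847 in IDPN-3wk rats (edgeR adjusted p = 0.812) and 0.41 ± 0.841 in IDPN-7wk rats (edgeR adjusted p = 0.866), so neither a rise nor a drop of several-fold could be told from no change.

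**Figure D2:**
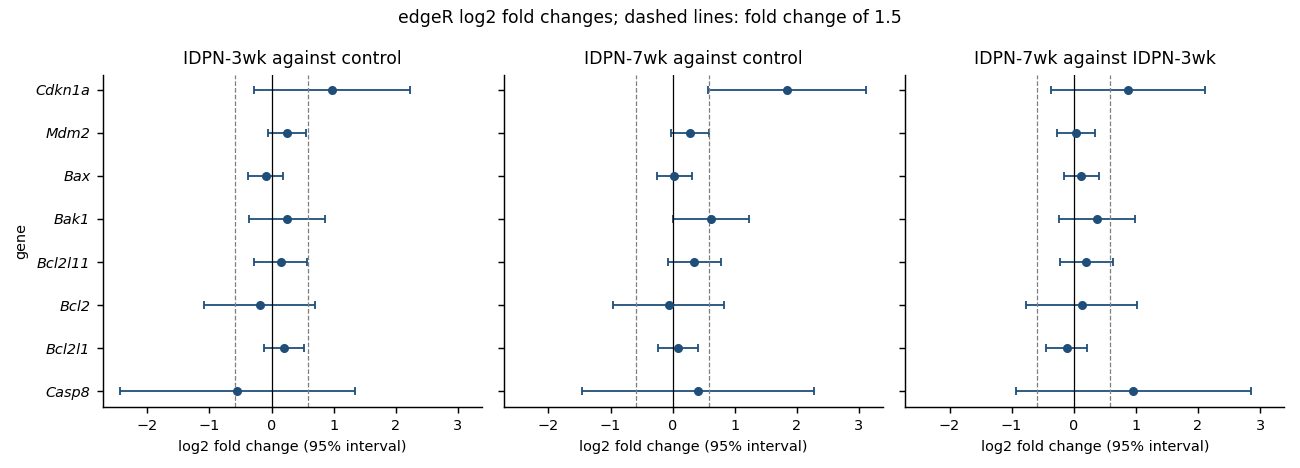
Log2 fold changes of the 8 genes in the 3 comparisons (edgeR), with 95% intervals as bars and dashed lines at a fold change of 1.5. The interval of Cdkn1a in IDPN-7wk against control rats (0.56 to 3.11) lies wholly above 0, and that of Casp8 spans the widest range.

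As a list, the 8 genes had a median log2 fold change of 0.17 at 3 weeks and 0.31 at 7 weeks against control, and of 0.17 at 7 weeks against 3 weeks, where the medians of all tested genes were -0.00047, 0.0097 and 0.0082. The first 2 comparisons share their controls, and the third does not use them. In the third, the weeks of exposure and any difference in age between the groups cannot be told apart. The estimate was above 0 for 5, 7 and 7 of the 8 genes and below 0 for 3, 1 and 1. The median size of the change regardless of sign was 0.22, 0.31 and 0.17 in the members, and 0.27, 0.29 and 0.25 in all genes. The intervals lay within a 1.5-fold change in either direction for 4 members at 3 weeks (Mdm2, Bax, Bcl2l1 and Bcl2l11), for 2 at 7 weeks (Bax and Bcl2l1), and for 3 between the times (Mdm2, Bax and Bcl2l1).

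Some libraries stood apart from the others of their own group. Totals ran from 31100118 to 46018385 counts per library, so that 3 counts, the floor used here, stand for 0.0611 to 0.101 CPM, and the lowest level among the members, 0.273 CPM of Casp8, lay above it. When all libraries were brought to the same depth, between 15387 and 15498 genes were detected in control replicate 3 and in the first and second IDPN-3wk replicates, and between 16834 and 17312 in the other 6 libraries, which included all IDPN-7wk rats. Replicates are numbered in accession order. Casp8 had 0.273 to 4.88 CPM in the libraries with fewer detected genes and 6.07 to 8.41 CPM in the others, with no overlap. Cdkn1a had 0.732 to 4.80 CPM in the former and 2.85 to 9.31 CPM in the latter, so its lowest level was in such a control library.

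**Figure D3:**
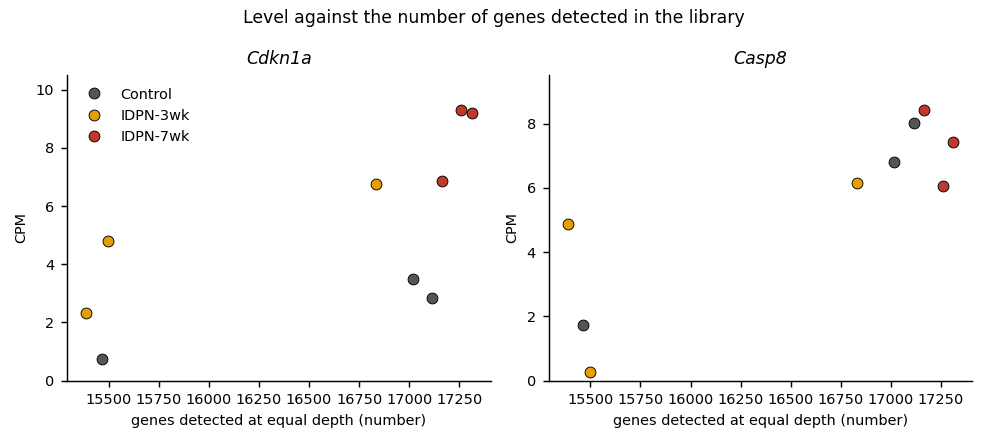
Level (CPM) of Cdkn1a and Casp8 in each library against the number of genes detected in it at equal depth, with colours for the 3 groups. The libraries with 15387 to 15498 detected genes hold all Casp8 levels of 4.88 CPM or less, and within each set of libraries Cdkn1a is higher in IDPN-exposed rats than in controls.

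Within each set of libraries the members were compared as differences of mean log2(CPM + 2), with no test, since a set held as little as 1 rat of a group. The difference of Cdkn1a between IDPN-3wk and control rats was 0.99 in the libraries with fewer detected genes and 0.76 in the others, and between IDPN-7wk and control rats it was 1.01 in the others. Between IDPN-7wk and IDPN-3wk rats the difference of Cdkn1a was 0.25 in the others, and with the library set as a covariate in edgeR its log2 fold change turned to -0.08. Casp8 differed by 0.09 between IDPN-3wk and control rats in the libraries with fewer detected genes and by -0.20 in the others, and by -0.02 between IDPN-7wk and control rats in the others. Bcl2l11 differed between IDPN-3wk and control rats by 0.61 in the former and by -0.17 in the latter. Without the libraries with fewer detected genes, which left 2 control, 1 IDPN-3wk and 3 IDPN-7wk rats and assumes that the lone rat varies like the others, Cdkn1a passed the edgeR test at 7 weeks with a log2 fold change of 1.40 and an adjusted p of 0.00932. What part the number of detected genes had in these differences was not tested.

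The wider pathway was read from 9 lists of genes, which share some members and came to 117 genes reported here, of which 103 were tested. None of the 103 passed in IDPN-3wk against control rats or in IDPN-7wk against IDPN-3wk rats by edgeR. At an unadjusted p below 0.05 edgeR gave 7 and 15 of them, against 15.8% and 13.8% of all genes. By DESeq2, Plk2 and Ripk3 passed in IDPN-3wk against control rats, where 5.18% of all genes did. Phlda3, Mlkl, Ripk3 and Tnfrsf1a passed in IDPN-7wk against IDPN-3wk rats, where 3.84% of all genes did. By their edgeR log2 fold changes in these comparisons, Plk2 (-0.82) and Phlda3 (-2.05) fell, and the others rose. Leaving aside the libraries with fewer detected genes, Phlda3 differed between IDPN-7wk rats and the lone IDPN-3wk rat by -0.70 in mean log2(CPM + 2). In IDPN-7wk against control rats 5 of the 103 passed (4.85%, against 5.13% of all genes). At an unadjusted p below 0.05 edgeR gave 17 of them, against 19.3% of all genes. Of the 5, Perp, Tnfrsf1a and Ripk3 rose, and Plk2 and Casp4 fell. The estimate was above 0 in 74 of the 103 genes, and the median log2 fold change was 0.18, against 0.0097 for all genes.

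None of the 13 p53 regulators tested and reported here, Mdm2 among them, passed at 7 weeks by edgeR, with 1 at an unadjusted p below 0.05 and none called by DESeq2. Mdm4, the partner of Mdm2 that blocks p53, had 42.7 ± 5.61, 43.4 ± 6.94 and 39.8 ± 3.11 CPM in control, IDPN-3wk and IDPN-7wk rats, and the estimate at 7 weeks was -0.10 on the log2 scale (edgeR adjusted p = 0.807).

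Of 32 tested p53 targets, Cdkn1a, Mdm2 and Bax among them, 1 rose and 1 fell at 7 weeks, 23 had an estimate above 0, and the median log2 fold change was 0.31. Perp, a p53 target that encodes a desmosomal membrane protein, had 75.4, 72.7 and 64.3 CPM in control rats, 69.4, 83.3 and 83.5 CPM in IDPN-3wk rats, and 117, 101 and 103 CPM in IDPN-7wk rats. It rose by 0.59 ± 0.117 on the log2 scale at 7 weeks (edgeR adjusted p = 0.0150), and every IDPN-7wk rat was above all others. The call of Perp was lost above a fold change of 2, with the library set as a covariate, without the libraries with fewer detected genes, and without control replicate 2 or 3 or IDPN-7wk replicate 1. Plk2, which encodes a polo-like kinase, had 33.4, 32.5 and 40.3 CPM in control rats and 19.0, 17.0 and 22.6 CPM in IDPN-7wk rats. It fell by 0.86 ± 0.212 on the log2 scale (edgeR adjusted p = 0.0423). With 25.9, 15.7 and 18.5 CPM the IDPN-3wk rats were below the controls too, although Plk2 did not pass there (-0.82, edgeR adjusted p = 0.0914). Its call at 7 weeks was lost above a fold change of 2, with the covariate and when any single control or IDPN-7wk library was left out. Gadd45a, a stress sensor that arrests growth, had 66.3 ± 8.32 CPM in control and 92.3 ± 15.2 CPM in IDPN-7wk rats (log2 fold change 0.48, edgeR adjusted p = 0.0886). Ccng1, which encodes cyclin G1 and is a standard p53 reporter, had 114 ± 12.1 and 129 ± 11.9 CPM (0.18, edgeR adjusted p = 0.589). Phlda3, another gene of this list, had 15.8, 11.1 and 17.8 CPM in control and 3.10, 7.01 and 5.80 CPM in IDPN-7wk rats. Its log2 fold change was -1.49 by edgeR, which did not call it, while DESeq2 did. The IDPN-3wk rats, with 29.1, 27.1 and 9.53 CPM, spread to both sides of the controls. Phlda3 had 17.8 to 29.1 CPM in the libraries with fewer detected genes and 3.10 to 15.8 CPM in the others.

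**Figure D4:**
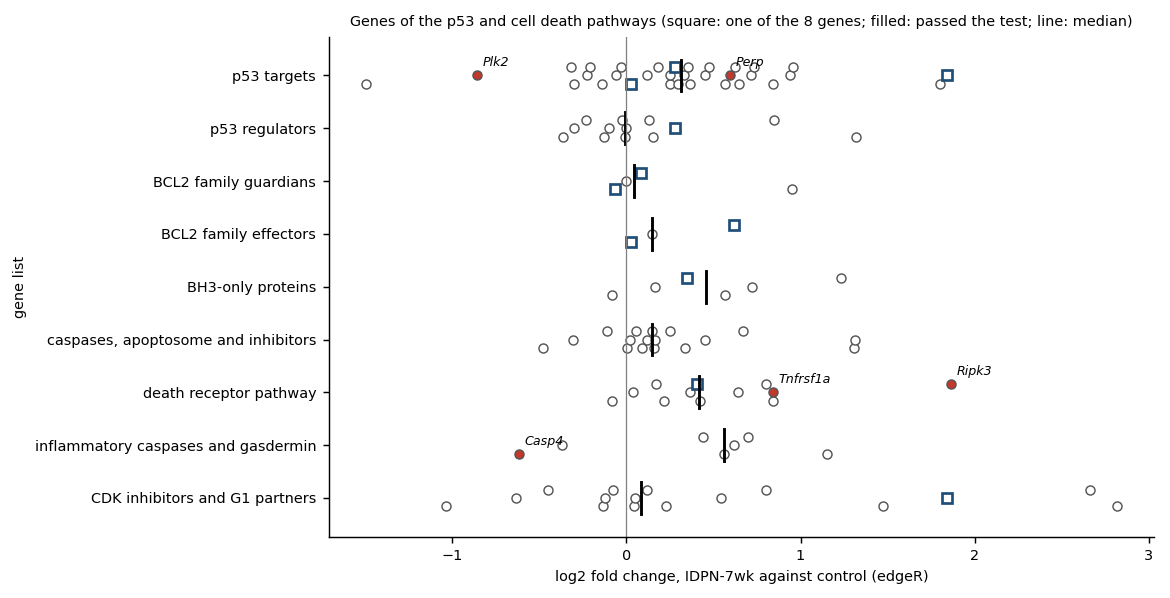
Log2 fold changes of the 103 tested genes in IDPN-7wk against control rats (edgeR), by list, with filled points for genes that passed the test, squares for the 8 genes described and a line at the median of each list. The 5 genes that passed are named, and the square of Cdkn1a lies at 1.84 without having passed.

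None of the 4 tested guardians, 3 effectors and 6 BH3-only genes passed at 7 weeks by edgeR, with 0, 1 and 0 of them at an unadjusted p below 0.05 and none called by DESeq2. Their median log2 fold changes were 0.04, 0.15 and 0.46. Among the BH3-only genes, Pmaip1 (Noxa, a p53 target) had 5.44 ± 1.91 CPM in control and 8.06 ± 2.35 CPM in IDPN-7wk rats (edgeR adjusted p = 0.472). Bid, which Casp8 cleaves to carry the death receptor signal to mitochondria, had 2.16, 2.29 and 3.29 CPM in control rats and 6.13, 6.78 and 5.27 CPM in IDPN-7wk rats, which did not overlap. In IDPN-3wk rats Bid spread from 0 to 6.53 CPM, and the adjusted p at 7 weeks in the fit of all 9 libraries was 0.634. It passed when only the control and IDPN-7wk libraries were fitted, and without the libraries with fewer detected genes. Mcl1 was not analysed here.

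None of the 17 genes of caspases, the apoptosome and their inhibitors that are reported here passed at 7 weeks by edgeR, with 1 at an unadjusted p below 0.05 and none called by DESeq2, and 14 had an estimate above 0. Casp9, the initiator caspase of the mitochondrial route, had 17.9 ± 9.72, 24.5 ± 13.0 and 28.4 ± 2.46 CPM in control, IDPN-3wk and IDPN-7wk rats (edgeR adjusted p = 0.497 at 7 weeks). Apaf1, the scaffold on which Casp9 is activated, had 21.5 ± 4.16, 20.4 ± 8.25 and 29.3 ± 4.90 CPM (edgeR adjusted p = 0.456 at 7 weeks).

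Of the 12 tested genes of the death receptor pathway, to which Casp8 belongs, 2 rose at 7 weeks, 11 had an estimate above 0, and the median log2 fold change was 0.42. Ripk3, the kinase that triggers necroptosis and is held back by Casp8, had 3.45, 3.92 and 2.56 CPM in control rats, 6.38, 6.43 and 7.04 CPM in IDPN-3wk rats, and 14.6, 10.2 and 11.2 CPM in IDPN-7wk rats. The groups were ordered without overlap, and Ripk3 rose by 1.86 ± 0.277 on the log2 scale at 7 weeks (edgeR adjusted p = 0.00367), while the log2 fold change at 3 weeks was 1.00 ± 0.273 (edgeR adjusted p = 0.104). Tnfrsf1a, a receptor of tumour necrosis factor, had 49.5, 50.0 and 61.8 CPM in control rats, 64.8, 58.4 and 61.6 CPM in IDPN-3wk rats, and 108, 87.2 and 94.6 CPM in IDPN-7wk rats. It rose by 0.84 ± 0.128 at 7 weeks (edgeR adjusted p = 0.00404). Ripk3 and Tnfrsf1a passed in all 13 alternatives that kept the fold change threshold of 1.5, and above a fold change of 2 Ripk3 alone of the 103 genes passed. Fas, a death receptor and p53 target, had 2.69 ± 0.761, 1.61 ± 0.985 and 4.83 ± 0.862 CPM in the 3 groups (edgeR adjusted p = 0.476 at 7 weeks). The adaptor Fadd had 23.3 ± 3.44, 21.7 ± 8.61 and 24.0 ± 1.24 CPM (edgeR adjusted p = 0.968 at 7 weeks), and Cflar, an inhibitory relative of Casp8, had 41.7 ± 5.98, 39.4 ± 3.90 and 48.4 ± 0.908 CPM (edgeR adjusted p = 0.473 at 7 weeks).

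Of 7 inflammatory caspases and gasdermin genes, Casp4 fell from 32.0, 32.5 and 33.9 CPM in control rats to 20.3, 19.7 and 24.3 CPM in IDPN-7wk rats, by 0.61 ± 0.158 on the log2 scale (edgeR adjusted p = 0.0485). The median of the list was 0.56 in the other direction, and the Casp4 call was lost above a fold change of 2 and in 8 of the 13 alternatives that kept the threshold of 1.5, namely the fit with no filter on low counts, the covariate and each fit that left out a single library. None of the 16 tested CDK inhibitors and their G1 partners, Cdkn1a among them, passed at 7 weeks by edgeR, with 3 at an unadjusted p below 0.05 and Cdkn1a alone called by DESeq2. Cdkn1b (p27) had 12.9 ± 3.64 CPM in control and 11.8 ± 2.14 CPM in IDPN-7wk rats (edgeR adjusted p = 0.859), and Ccnd1 (cyclin D1) had 20.9 ± 5.46 and 24.4 ± 1.3 CPM (edgeR adjusted p = 0.818).

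**Figure D5:**
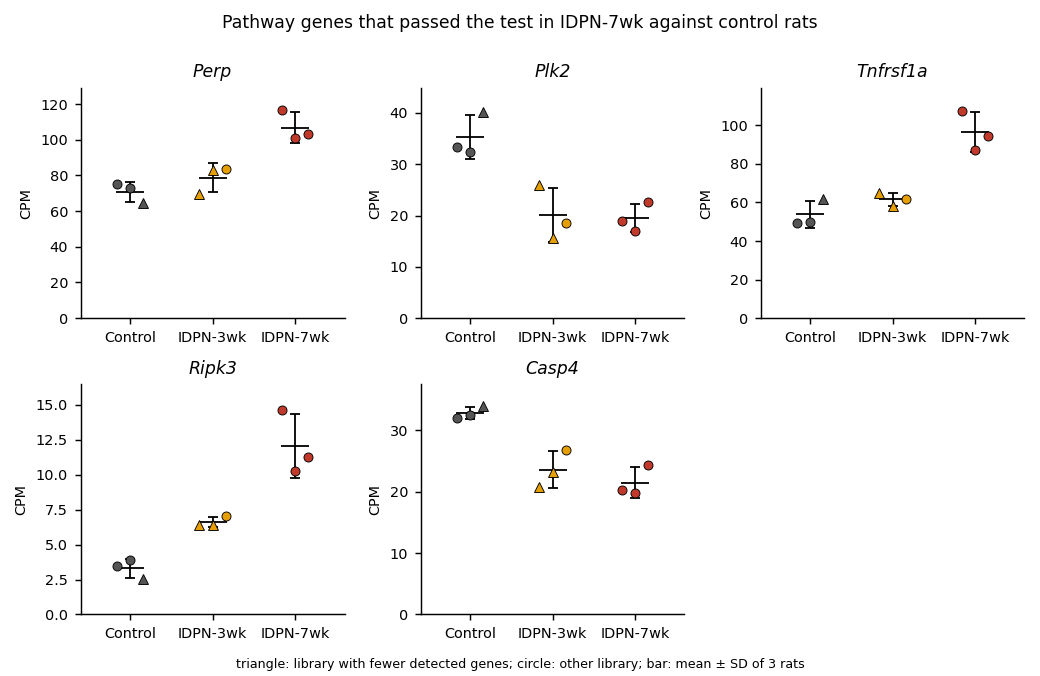
Level (CPM) in every library of the 5 pathway genes that passed the test in IDPN-7wk against control rats, with horizontal bars for the mean and error bars for the SD of 3 rats, and triangles for the libraries with fewer detected genes. Ripk3 runs from 2.56 to 3.92 CPM in control rats through 6.38 to 7.04 CPM in IDPN-3wk rats to 10.2 to 14.6 CPM in IDPN-7wk rats.

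Markers of several cell types in the tissue moved with exposure. The sums of fibroblast and of erythroid markers in IDPN-7wk rats overlapped with those in control rats, though 1 of the 6 fibroblast markers passed at 7 weeks, lower. The 3 T cell markers summed to 3.13 to 3.53 CPM in control, 2.29 to 5.42 CPM in IDPN-3wk and 3.85 to 5.61 CPM in IDPN-7wk rats. The 1 of them tested did not pass at 7 weeks. The summed level of 8 HC markers, all detected in every library, was 1253 to 1383 CPM in control, 610 to 810 CPM in IDPN-3wk and 629 to 718 CPM in IDPN-7wk rats. Of them 6 passed at 7 weeks, all lower. The 8 macrophage markers analysed, also detected in every library, summed to 69.4 to 113 CPM in control, 50.9 to 134 CPM in IDPN-3wk and 206 to 264 CPM in IDPN-7wk rats, and the 8 had estimates above 0 at 7 weeks, of which 1 passed. The 4 endothelial markers analysed, detected in every library as well, summed to 187 to 196 CPM in control, 195 to 254 CPM in IDPN-3wk and 206 to 293 CPM in IDPN-7wk rats, and the 4 had estimates above 0 at 7 weeks, of which 1 passed. The higher levels of both sets of markers in IDPN-7wk rats coincided with those of Cdkn1a, Bak1, Bcl2l11, Perp, Ripk3 and Tnfrsf1a, and their part in these results was not tested. Schwann cell markers (7) summed to 9562 to 12025 CPM in control, 7697 to 10214 in IDPN-3wk and 3259 to 6841 in IDPN-7wk rats. Of them 2 passed at 7 weeks, both lower. The 7 supporting cell markers summed to 12551 to 13120 CPM in control and 5109 to 7371 CPM in IDPN-7wk rats. Of them 3 passed, all lower, and most of the sum was Otog, with means of 8473 and 3533 CPM. Neuron markers (6) summed to 109 to 128 and 64.0 to 81.1 CPM in these groups. Of them 1 passed at 7 weeks, lower, and 1 had an estimate above 0. Snap25 had means of 38.6 and 10.7 CPM, whereas Nefl had 38.2 and 33.2 CPM. Markers of dark cells and melanocytes (5) summed to 545 to 579 and 453 to 476 CPM, and 1 of them passed, lower. From these whole-tissue counts alone, fewer cells of a type and less RNA per cell cannot be told apart. Neither can a change in a few cells and a smaller one in many. For HCs, the paper counted cells in other rats and reported only limited loss up to 4 weeks of this exposure. Within HCs at 4 weeks it measured lower mRNA of Vsig10l2 and higher mRNA of Atf3. The protein label of several HC genes was also lower there, but that of Myo7a was not. For IDPN-7wk rats it considered a significant loss of HCs likely.

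Over the 9 libraries, Pearson's r of log2 CPM was highest between Cdkn1a and Bcl2l11 (0.826), Cdkn1a and Mdm2 (0.762) and Mdm2 and Bcl2l11 (0.698) of the 28 pairs of members. These values are descriptions over libraries that share groups and detection, and Cdkn1a and Bax had an r of -0.04. Among all tested genes those most like Cdkn1a were Scarf1 (0.981), Nmb (0.977) and AABR07053749.2 (0.966). None of these 3 passed at 7 weeks (edgeR adjusted p of 0.396, 0.254 and 0.0571), and Nmb, at 0.0281 to 1.09 CPM, reached below the floor.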

How the data were processed

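RNA of pooled cristae and utricles was sequenced in 9 libraries (SMARTseq2 cDNA, Nextera XT libraries, paired ends). The authors aligned the reads to Rnor6.0 by STAR and quantified genes by RSEM on the Rnor6.0.92 annotation; the submitters' processing notes name STAR 2.5.3a and RSEM 1.3.0. The deposited values are these expected counts as whole numbers, with no normalization. Neither the strand setting of the counting nor molecular identifiers are given, so reads copied by PCR could not be told from reads of separate molecules. Groups came from the treatment given in the labels. Genes were kept by filterByExpr, scaled by TMM and tested with edgeR 4.0.16 (robust quasi-likelihood, R 4.3.3) in 1 fit of 9 libraries with a mean per group (6 residual degrees of freedom). DESeq2 1.42.0 was an alternative, as were RLE size factors, other filters and thresholds, the fit of only the groups compared, the library set as a covariate, and fits without libraries. The fit was tested on simulated counts. The members, the lists and the cell type markers were chosen with earlier results of these data known. Named are all members, list genes that passed, context genes fixed with the lists, and the 3 genes most like Cdkn1a. The text also names some list genes that only an alternative called, chosen after their values were seen. Some genes of the lists are not reported here, and counts over the lists leave them out.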

Additional observations from a re-analysis of the deposited data

How the results depend on the processing

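Of 360 results of the members under alternatives (8 genes, 3 comparisons and 15 settings), 334 kept their direction and their side of the threshold, 2 newly passed and 24 turned in direction, none of which had passed the test. The settings that changed only the fold change threshold used the main fit, so no direction could turn there. A threshold of 2 could not add a call either, so these results say nothing of stability. The count of members that passed at 7 weeks, 0 by edgeR, was 1 (Cdkn1a) under DESeq2 and 1 (Cdkn1a) without the libraries with fewer detected genes; the cause was not tested. The log2 fold change of Cdkn1a at 7 weeks ran from 1.40 to 2.24 over its alternatives, with adjusted p from 0.00932 to 0.247. With the library set as a covariate, the log2 fold change of Casp8 at 3 weeks was 0.14, of Bcl2 at 7 weeks 0.043, and between IDPN-7wk and IDPN-3wk rats that of Mdm2 -0.098, of Casp8 -0.040 and of Cdkn1a -0.077. Without the libraries with fewer detected genes, Bcl2l11 and Bcl2 at 3 weeks were -0.18 and 0.039, Casp8 and Bcl2 at 7 weeks -0.024 and 0.14, Mdm2 between the times -0.039, and the log2 ratio of Bax to Bcl2 differed by -0.158, -0.105 and 0.0538 in the 3 comparisons. When single libraries were left out, the log2 fold change at 3 weeks ran from -0.033 to 0.30 for Bcl2l11, from -0.63 to 0.15 for Bcl2 and from -1.10 to 0.0014 for Casp8. At 7 weeks it ran from -0.019 to 0.083 for Bax, from -0.057 to 0.20 for Bcl2l1, from -0.021 to 0.78 for Casp8 and from -0.25 to 0.15 for Bcl2. Between the times it ran from -0.21 to 0.565 for Bcl2 and from -0.060 to 0.11 for Mdm2. The log2 ratio of Bax to Bcl2 then differed by -0.245 to 0.581, -0.105 to 0.248 and -0.512 to 0.313. Of the list genes that edgeR did not call, DESeq2 also called Cdkn1a, which rose, and Phlda3, which fell, at 7 weeks. Counts of 10 to 453 reads limit what can be seen of Casp8 and Cdkn1a. Each library came from a different rat, so the groups were compared without pairs, and the labels give no replicate numbers. The first part of the rat code in the labels was the same in all controls and occurred in no exposed rat. Its meaning is not given, and its part in the results was not tested.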
